A study of Rattus norvegicus with 13 samples.

Results

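The G1/S cyclins and DNA replication genes are the genes that carry a cell from G1 into S phase and copy its DNA. They were taken from a list of 43 genes by symbol, current or older, and every probe of a listed gene was used that had at least 2 values in each group. The list was chosen with earlier results of these data known. Of the 43 genes, 34 had a probe and 33 had a probe that met this minimum. These 33 genes were read by 35 probes, out of 17965 probes that met the minimum and 26962 on the array in all. E2f1, Ccne1, Ccnd3, Lig1, Pola1, Prim1, Rrm1, Tk1 and Gins1 had no probe under these names and were not analysed here. The probe of Mcm3, 1 probe of E2f8 and 2 probes of Fanca missed the minimum. Fanca was the only gene with several tested probes, with 3.

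The study asked what 2 beta-cell transcription factors do to gene expression in rat pancreatic islets. Islets of male Sprague-Dawley rats received an adenovirus in which the cytomegalovirus promoter drives hamster Nkx6.1 (5 arrays), mouse Pdx1 (3 arrays) or bacterial beta-galactosidase, the control named bGAL (5 arrays). Virus was present for 18 h, and the islets were then cultured for 60 h in medium with 8 mM glucose and 10% serum. About 200 islets were pooled per condition, 500 ng of RNA was labelled with Cy5, and the arrays of a group are labelled as separate islet isolations. Every group carried a virus, so no array shows islets without one. The cytomegalovirus promoter is active in most cell types, so the transgene was not restricted to beta cells, and whole islets also hold alpha, delta, duct, endothelial and other cells. Each value is the log2 ratio of islet RNA over a Cy3-labelled reference RNA pool common to all arrays. A value below 0 therefore means a lower signal in islets than in the pool, and levels of different genes cannot be ranked against each other on this scale.

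As background, D-type cyclins with Cdk4 or Cdk6 begin the phosphorylation of the retinoblastoma protein, which frees E2F transcription factors. E2F then raises cyclin E, cyclin A and the genes of the replication machinery. Origins are licensed in G1 when Cdc6 and Cdt1 load the ring-shaped Mcm2 to Mcm7 helicase, and in S phase Cdc45 and the GINS complex turn that ring into a working helicase. Geminin (Gmnn) blocks Cdt1 once S phase has begun. Adult beta cells replicate rarely, and cyclin D2 is the D-type cyclin best known for supporting their growth in rodents.

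The arrays were not alike in quality. On 8 arrays, 0.23% to 15.5% of the values were empty, and on the other 5 (bGAL 1, 2, 3 and 5 and Nkx6.1 1) 35.4% to 61.1% were. All Pdx1 arrays lay in the first set and 4 of 5 bGAL arrays in the second, so array set and virus overlap in large part. Nkx6.1 array 2 stood apart from every other array, with correlations of 0.557 to 0.725 across probes and a spread of 2.14 log2 units, against 1.43 to 1.50 on the other arrays with few empty values and 1.78 to 1.90 on those with many. Results that rest on it are given below with and without it. The islet label was borne out by the hormone genes: Gcg averaged 6.34 in Nkx6.1 islets, 6.12 in Pdx1 islets and 6.14 in bGAL islets, and Ins1 averaged 5.06, 4.71 and 4.05 in the same order.

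The promoters of 4 members are shown first, picked both for holding the letters read by E2F and for values above bGAL. None of the 4 passed an adjusted p under 0.05 in limma with all arrays. Cdt1, Mcm2 and Uhrf1 hold such letters too, and differed from bGAL by -0.23, -0.32 and 0.13 in Nkx6.1 islets. In Pdx1 islets they differed by -0.19, -0.20 and 0.02. Of the genes that passed in limma, E2f8 and Ccna2 have no window, and the Fanca window holds none of these letters. Each runs from 250 bases before to 50 bases after the gene's start, in RefSeq's annotation of the rat assembly GRCr8, and is written 5′ to 3′ on the gene's own strand. Capitals mark TTTCCCGC, TTTGGCGC, TTTCGCGC or TTTGCCGC on either strand, and adjoining capitals can hold 2 of these that overlap on opposite strands.
Mcm5, chr19:13488563-13488862, plus strand: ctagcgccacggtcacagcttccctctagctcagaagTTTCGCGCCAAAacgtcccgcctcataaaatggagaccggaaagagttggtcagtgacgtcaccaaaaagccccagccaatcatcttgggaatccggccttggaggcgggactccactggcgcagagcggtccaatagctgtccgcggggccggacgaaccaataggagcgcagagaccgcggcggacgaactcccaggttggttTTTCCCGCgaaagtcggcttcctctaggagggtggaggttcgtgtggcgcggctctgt
Mcm6, chr13:42404303-42404602, minus strand: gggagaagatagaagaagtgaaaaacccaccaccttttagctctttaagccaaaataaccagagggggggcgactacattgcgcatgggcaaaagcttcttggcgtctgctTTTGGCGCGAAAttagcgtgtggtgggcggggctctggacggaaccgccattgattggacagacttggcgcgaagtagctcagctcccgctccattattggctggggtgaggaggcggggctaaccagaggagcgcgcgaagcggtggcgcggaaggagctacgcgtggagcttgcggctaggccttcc
Gmnn, chr17:40729584-40729883, plus strand: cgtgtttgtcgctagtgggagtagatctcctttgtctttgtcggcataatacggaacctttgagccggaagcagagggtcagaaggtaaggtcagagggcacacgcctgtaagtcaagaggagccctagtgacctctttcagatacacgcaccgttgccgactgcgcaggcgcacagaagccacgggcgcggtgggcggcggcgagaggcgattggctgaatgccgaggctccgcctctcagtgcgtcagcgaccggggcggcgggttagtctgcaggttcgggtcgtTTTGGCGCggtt
Rfc3, chr12:5836318-5836617, plus strand: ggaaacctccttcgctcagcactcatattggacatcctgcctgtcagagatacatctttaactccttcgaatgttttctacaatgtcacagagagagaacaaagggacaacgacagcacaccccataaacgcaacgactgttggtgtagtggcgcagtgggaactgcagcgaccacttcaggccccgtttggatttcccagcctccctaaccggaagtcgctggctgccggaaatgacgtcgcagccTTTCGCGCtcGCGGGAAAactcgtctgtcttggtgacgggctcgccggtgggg
In the Mcm5 window, TTTCCCGC began 8 bases before the start, and the overlapping pair TTTCGCGC and TTTGGCGC lay further upstream. In the Mcm6 window the overlapping pair lay 139 and 135 bases upstream. In the Rfc3 window TTTCGCGC began 3 bases before the start, and TTTCCCGC was read on the opposite strand just after it. The match in Gmnn was a single TTTGGCGC, 39 bases after the start.

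A promoter window was found for 33 of the 43 genes, and 14 of these genes (42.4%) had a window with at least 1 of the 4 E2F letter strings. Over all 27457 genes of the table the share was 2.37%, and over the 19005 protein-coding genes it was 2.95%. Counted by window, as Uhrf1 has 3, the shares were 14 of 35 (40.0%) for the members and 2.14% of all 33469 windows. The 14 genes were Cdt1, Gins1, Gmnn, Lig1, Mcm2, Mcm3, Mcm5, Mcm6, Mcm7, Pola1, Rfc3, Rpa2, Tyms and Uhrf1. The letters CCAAT were found for 20 genes (60.6%, against 39.6% of all genes), GGCGG for 31 (93.9%, against 50.2%), and TTTGAA, a string known from promoters of late cell-cycle genes, for 1 (3.03%, against 19.4%), each searched on both strands. GGCGG is also common in promoters rich in G and C. The E2F strings hold more G and C than A and T, and TTTGAA holds more A and T. Base composition was not matched here for any of these strings. E2f8, Ccna2, Ccnd1, Ccnd2, Ccne2, Cdc6, Cdk6, Mcm4, Rrm2 and E2f1 have no window in the table. Among tested genes, the 10 with E2F letters had a median difference from bGAL of 0.82 log2 units in Nkx6.1 islets, and the 14 genes with a window but none of these letters had 0.27 over 16 probes. In Pdx1 islets the same medians were 0.49 and 0.35. The 9 tested genes with no window, E2f8 and Ccna2 among them, had medians of 0.68 in Nkx6.1 and 1.98 in Pdx1 islets. They could not be sorted by letters. These are descriptions of letters in a window and carry no test.

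The question of the Nkx6.1 arrays against the bGAL arrays is which of these genes differ when Nkx6.1 is added. E2f8, Ccna2 and 1 of the 3 probes of Fanca rose. E2f8 is an E2F factor that represses other E2F targets later in S phase, and its 1 tested probe was 5.42-fold higher. Ccna2 (cyclin A2, the partner of Cdk2 in S phase) was 4.12-fold higher, and the probe of Fanca, a gene of the Fanconi anaemia repair pathway, was 5.89-fold higher. No member fell at an adjusted p under 0.05 in limma. The 3 probes are 8.57% of the 35 member probes, against 0.412% of all probes tested (74 of 17965) called higher, and none lower, against 0.228% of all probes. As the members were chosen with earlier results of these data known, these shares describe the list and carry no test. At an unadjusted p under 0.05, 16 member probes (45.7%) were higher and 0 lower, against 5.24% and 9.2% of all probes. On 8 probes (22.9%) every Nkx6.1 value lay above every bGAL value, against 3.25% of all probes, and on 0 every value lay below, against 4.48%. The median difference of the 35 probes was 0.60 log2 units, against -0.080 over all probes tested, and 24 probes (68.6%) lay above 0, against 43.7% of all probes. The member median was 0.56 with arrays scaled to one spread and 0.50 after quantile normalization. Fewer or more cells of a type and less or more RNA per cell cannot be told apart in RNA of whole islets.

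The Pdx1 arrays against the same bGAL arrays ask this for Pdx1. E2f8, on its 1 tested probe, was the only member that rose at an adjusted p under 0.05 in limma, by 4.59-fold, and none fell. That is 2.86% of member probes, against 0.44% of all probes called higher and 0.106% called lower. The same limit from the choice of members holds for the shares here. At an unadjusted p under 0.05, 13 member probes (37.1%) were higher and 1 was lower, a Fanca probe, against 4.09% and 7.78% of all probes. Every Pdx1 value lay above every bGAL value on 14 probes (40.0%), against 8.02% of all probes, and below on 1, against 11.5%. The median difference of the member probes was 0.63 log2 units, against -0.096 over all probes, and 28 probes (80.0%) lay above 0, against 42.3%. On 31 of the 35 member probes the bGAL mean lay below 0. The spread was 1.84 to 1.90 on bGAL arrays 1, 2, 3 and 5 and 1.43 to 1.47 on the Pdx1 arrays. With arrays scaled to one spread the member median was 0.39, and after quantile normalization 0.23, against -0.11 and -0.080 over all probes. The part of array spread in these medians was not tested. Both comparisons use the same 5 bGAL arrays, so their differences are not independent of each other.

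These counts depended on single arrays and on the array set. Without Nkx6.1 array 2, 9 member probes were called higher in Nkx6.1 islets (Rpa2, Rfc3, Mcm6, Ccna2, Fanca, Gmnn, Ccnd1, E2f8 and Cdc6), against 0.868% of all probes. In Pdx1 islets 9 were called as well (Ccnd2, Rfc3, Mcm6, Ccne2, Ccna2, Gmnn, Ccnd1, E2f8 and Cdc6), against 1.14%. Without that array, 14 member probes (40.0%) also had every Nkx6.1 value above every bGAL value, against 5.26% of all probes. Without bGAL array 4, 7 members were called in Nkx6.1 islets and 3 in Pdx1 islets, against 1.37% and 0.936% of all probes. With array set as a blocking factor in the model, E2f8 alone was called in Nkx6.1 islets and no member in Pdx1 islets, against 0.0557% and 0.117% of all probes. With the block and without Nkx6.1 array 2, Mcm6, Ccna2, Fanca and E2f8 were called in Nkx6.1 islets, against 0.367%, and Ccna2 in Pdx1 islets, against 0.345%. This combination was not planned. In the set rich in empty values, with its single Nkx6.1 array, the median member difference from bGAL was 0.71 (29 probes). In the other set, with its single bGAL array, it was 0.52 in Nkx6.1 islets and 0.48 in Pdx1 islets.

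Set against the mean of the bGAL arrays, the median member value on the 5 Nkx6.1 arrays was 0.76, 0.025, 0.57, 0.58 and 0.58 log2 units higher. On the 3 Pdx1 arrays it was 0.53, 0.69 and 0.58 higher, and the bGAL arrays lay between -0.089 and 0.18. Each bGAL array is part of the mean it was set against, which draws its value toward 0 and narrows this range. Nkx6.1 array 2 was the only array with added factor whose median over all its member values fell within the bGAL range. Over the 25 member probes with a value on every array its median was 0.47, against -0.089 to 0.18 on the bGAL arrays, and lay outside that range.

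**Figure D1:**
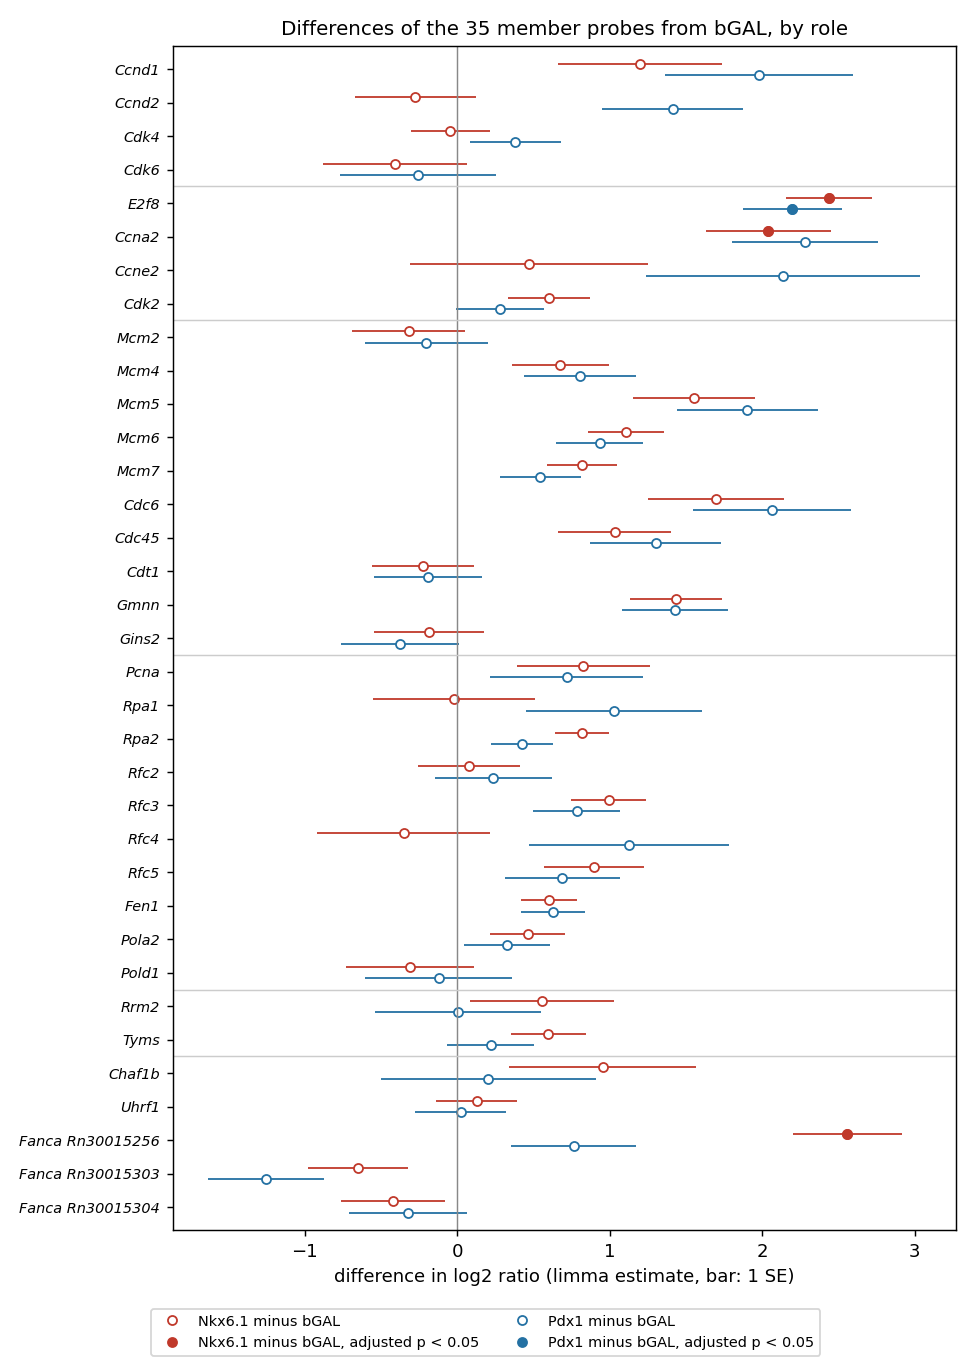
Difference from the bGAL arrays in log2 ratio for the 35 member probes, ordered by role, with Nkx6.1 in red above Pdx1 in blue; points are limma estimates, bars are 1 SE and filled points have an adjusted p under 0.05. E2f8 is filled for both factors, Ccna2 and 1 Fanca probe for Nkx6.1, and most estimates of the licensing and fork genes lie right of 0.

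Among the D-type cyclins and their kinases, none passed with all arrays, and the values of Ccnd1 and Ccnd2 rested in part on Nkx6.1 array 2. Ccnd1 (cyclin D1) read 2.90, -0.62, 1.51, 1.37 and 1.63 on the Nkx6.1 arrays, 2.38, 1.89 and 2.15 on the Pdx1 arrays, and -0.36, -0.11, 0.42 and 0.68 on bGAL arrays 1, 3, 4 and 5, with bGAL 2 empty. All Pdx1 values and all Nkx6.1 values but that of array 2 lay above the bGAL values. The Ccnd1 difference was 1.20 (SE 0.54, adjusted p = 0.335) in Nkx6.1 islets and 1.98 (SE 0.62, adjusted p = 0.227) in Pdx1 islets, so neither passed in limma. Without Nkx6.1 array 2 both passed, at 1.69 (adjusted p = 0.0474) and 1.98 (adjusted p = 0.0308). Within the array sets, the Nkx6.1 difference was 2.83 where many values were empty and 0.55 where few were.

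Ccnd2 (cyclin D2) was the member that set the factors apart most among the cyclins. It read 2.38, 0.17, 2.66, 2.21 and 2.53 on the Nkx6.1 arrays (1.99 ± 1.03, SD, n = 5) and 3.53, 3.55 and 3.96 on the Pdx1 arrays (3.68 ± 0.24, SD, n = 3). On the bGAL arrays it read 1.99, 2.15, 2.54, 2.46 and 2.18 (2.26 ± 0.23, SD, n = 5). Every Pdx1 value lay above every value of the other groups, while the Nkx6.1 values, array 2 apart, lay among or just above the bGAL values. The difference was -0.27 (SE 0.40, adjusted p = 0.762) in Nkx6.1 islets and 1.41 (2.66-fold, SE 0.46, adjusted p = 0.243) in Pdx1 islets. Without Nkx6.1 array 2 the Pdx1 difference was 1.41 with an adjusted p of 0.00296, its size unchanged since that array is not part of it, and the Nkx6.1 difference was 0.18 (adjusted p = 0.638). With array set blocked the Pdx1 difference was 1.51 and did not pass (adjusted p = 0.999).

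Cdk4, the kinase partner of D-type cyclins that islets depend on in mice, averaged -0.47 ± 0.46 in Nkx6.1 islets (SD, n = 5), -0.04 ± 0.17 in Pdx1 islets (SD, n = 3) and -0.43 ± 0.40 in bGAL islets (SD, n = 5). Cdk6, its close relative, averaged -1.33 (n = 4), -1.18 (n = 3) and -0.92 (n = 4) in the same order, and its bGAL values ran widely, between -2.51 and -0.01. Neither kinase passed even at an unadjusted p under 0.05.

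**Figure D2:**
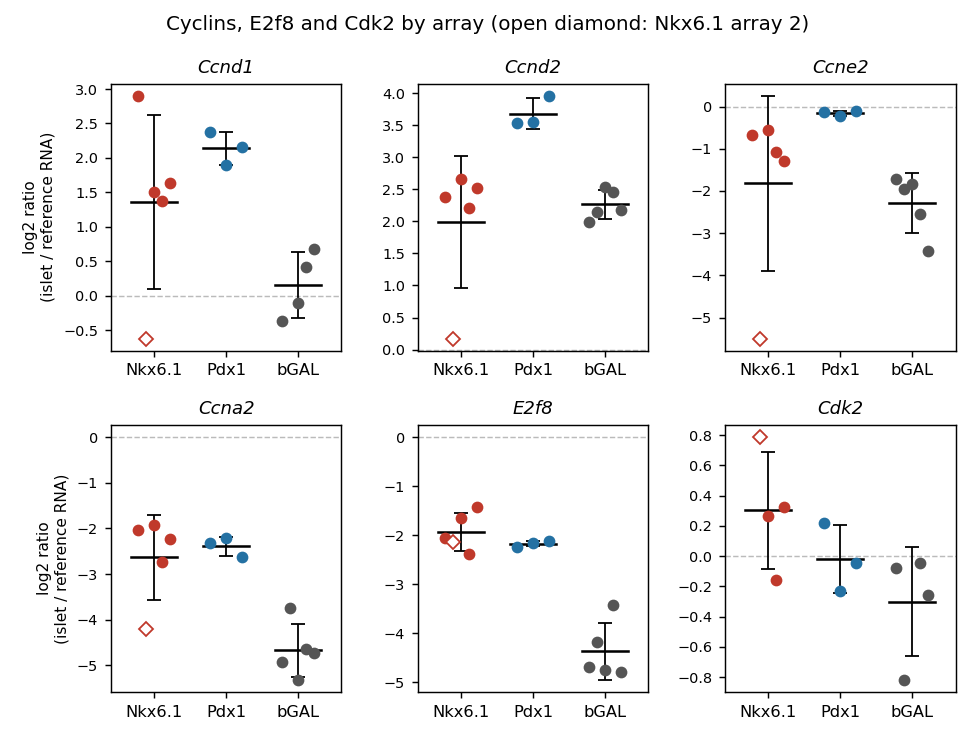
Log2 ratio of islet over reference RNA on each array for Ccnd1, Ccnd2, Ccne2, Ccna2, E2f8 and Cdk2, with columns for Nkx6.1, Pdx1 and bGAL; lines are means, bars are SD and the open diamond is Nkx6.1 array 2. E2f8 values of both factors lie above all bGAL values, Ccnd2 is highest on the Pdx1 arrays, and the open diamond is the lowest Nkx6.1 point of Ccnd1, Ccnd2, Ccna2 and Ccne2.

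E2f8 gave the smallest p of the members in both comparisons. Its probe Rn30020844 read -2.06, -2.13, -1.66, -2.39 and -1.42 on the Nkx6.1 arrays (-1.93 ± 0.39, SD, n = 5) and -2.23, -2.17 and -2.12 on the Pdx1 arrays (-2.17 ± 0.06, SD, n = 3). On the bGAL arrays it read -4.70, -4.17, -4.76, -3.44 and -4.80 (-4.37 ± 0.58, SD, n = 5). Neither factor's values overlapped bGAL, though they overlapped each other, and Nkx6.1 array 2 lay among its fellows here. The difference was 2.44 (SE 0.28, adjusted p = 0.00203) in Nkx6.1 islets and 2.20 (SE 0.33, adjusted p = 0.00789) in Pdx1 islets. With array set blocked it was 2.04 (adjusted p = 0.0375) and 1.67 (adjusted p = 0.292), so that the Pdx1 call was lost. The Pdx1 call was also lost when any 1 of the 3 Pdx1 arrays was left out, with an adjusted p of 0.0586 to 0.0664 at an unchanged size of 2.17 to 2.23. Within the array sets, the Nkx6.1 difference was 2.55 and 1.53, and the Pdx1 difference was 1.26 against the single bGAL array of its set. That array, bGAL 4, had the highest value of the controls on this E2f8 probe. The other E2f8 probe, Rn30020824, had too few values to be tested. It averaged -0.24 on 4 Nkx6.1 arrays and -0.02 on 2 Pdx1 arrays, and read -0.51 on 1 bGAL array. The E2f8 calls therefore belong to 1 probe.

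Ccna2 read -2.04, -4.20, -1.93, -2.74 and -2.24 on the Nkx6.1 arrays (-2.63 ± 0.93, SD, n = 5) and -2.33, -2.22 and -2.63 on the Pdx1 arrays (-2.39 ± 0.21, SD, n = 3). On the bGAL arrays it read -4.93, -3.74, -5.32, -4.64 and -4.73 (-4.67 ± 0.58, SD, n = 5). Only Nkx6.1 array 2 fell among the bGAL values. The difference was 2.04 (SE 0.41, adjusted p = 0.0441) in Nkx6.1 islets and 2.28 (4.86-fold, SE 0.48, adjusted p = 0.0553) in Pdx1 islets. Without Nkx6.1 array 2 both passed, at 2.44 (adjusted p = 0.00167) and 2.28 (adjusted p = 0.00408). With array set blocked the Pdx1 difference was 2.56 and did not pass (adjusted p = 0.386). The Nkx6.1 call held in 7 of 23 alternatives. It was lost without any 1 of the other arrays apart from bGAL 4, with an adjusted p of 0.0505 to 0.132 and a difference of 1.87 to 2.28, and with array set blocked (2.25, adjusted p = 0.218). It was also lost after quantile normalization (1.52, adjusted p = 0.144), with a variance trend in limma (2.04, adjusted p = 0.0659), with the replicate block (2.04, adjusted p = 0.184) and on the arrays with few empty values alone (1.86, adjusted p = 0.990).

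Ccne2 (cyclin E2, which activates Cdk2 at the start of S phase) falls outside the naming rule and was added after its values were seen. It read -0.68, -5.50, -0.56, -1.09 and -1.28 on the Nkx6.1 arrays and -0.14, -0.22 and -0.11 on the Pdx1 arrays, against -1.71, -1.95, -1.85, -2.54 and -3.42 on the bGAL arrays. Every Pdx1 value lay above both other groups, and Nkx6.1 array 2 read far below all others. The difference was 0.47 (adjusted p = 0.791) in Nkx6.1 islets and 2.14 (4.39-fold, adjusted p = 0.371) in Pdx1 islets, where the wide spread of the Nkx6.1 group enters the error. Without array 2 it was 1.39 (adjusted p = 0.0612) and 2.14 (adjusted p = 0.0122). With array set blocked it was 0.99 (adjusted p = 0.988) and 2.83 (adjusted p = 0.999). Cdk2, the kinase of cyclins E and A, averaged 0.30 ± 0.39 in Nkx6.1 islets (SD, n = 4), -0.02 ± 0.22 in Pdx1 islets (SD, n = 3) and -0.30 ± 0.36 in bGAL islets (SD, n = 4), and its differences of 0.60 (adjusted p = 0.334) and 0.28 did not pass.

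Among the licensing and helicase genes, 7 of 10 probes lay above bGAL in Nkx6.1 islets and the same number in Pdx1 islets, with medians of 0.93 and 0.87. In each comparison 6 of the 10 were higher at an unadjusted p under 0.05 and 0 lower, against 5.24% of all probes higher and 9.2% lower for Nkx6.1 and 4.09% and 7.78% for Pdx1. None passed after adjustment over all probes. Mcm5, a subunit of the helicase ring, read -3.05, -1.85, -0.96, -1.47 and -1.80 on the Nkx6.1 arrays, -1.57, -1.25 and -1.60 on the Pdx1 arrays, and -3.35, -4.45, -2.40, -3.20 and -3.50 on the bGAL arrays. The Pdx1 values were clear of bGAL, and the Nkx6.1 values were too except on array 1. The Mcm5 difference was 1.55 (2.94-fold, SE 0.40, adjusted p = 0.109) in Nkx6.1 islets and 1.90 (3.74-fold, SE 0.46, adjusted p = 0.116) in Pdx1 islets. In the set rich in empty values it was 0.38 in Nkx6.1 islets, and in the other set it was 1.68 in Nkx6.1 and 1.72 in Pdx1 islets.

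Mcm6, another ring subunit, varied little between the bGAL arrays. It read -1.92, -0.58, -1.76, -1.94 and -1.78 on the Nkx6.1 arrays, -1.70, -1.79 and -1.83 on the Pdx1 arrays, and -2.77, -2.62, -2.63, -2.71 and -2.79 on the bGAL arrays (-2.70 ± 0.08, SD, n = 5). All values of both factors lay above all bGAL values, and Nkx6.1 array 2 was far above the rest. The difference was 1.11 (SE 0.25, adjusted p = 0.0678) in Nkx6.1 islets and 0.93 (SE 0.29, adjusted p = 0.218) in Pdx1 islets. Without array 2 these were 0.85 (adjusted p = 0.00604) and 0.93 (adjusted p = 0.00463), both past the threshold. Neither passed with array set blocked, at 0.99 (adjusted p = 0.559) and 0.77 (adjusted p = 0.999). After quantile normalization the Nkx6.1 difference was 0.53 (adjusted p = 0.510). The Pdx1 difference passed in 1 of 23 alternatives and was as low as 0.14 among them.

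Mcm7, a further ring subunit, read -1.17, -0.31, -1.41, -1.36 and -1.41 on the Nkx6.1 arrays, -1.51, -1.15 and -1.56 on the Pdx1 arrays, and -1.97, -1.84, -2.01, -2.15 and -1.80 on the bGAL arrays. The groups again did not overlap with bGAL, by smaller steps. The difference was 0.82 (adjusted p = 0.136) in Nkx6.1 islets and 0.55 in Pdx1 islets (adjusted p = 0.441). Mcm4 averaged -1.76 ± 0.51 in Nkx6.1 islets, -1.63 ± 0.28 in Pdx1 islets and -2.43 ± 0.60 in bGAL islets (SD, n = 5, 3 and 5), with overlap between Nkx6.1 and bGAL. Mcm2 did not follow the other ring subunits, with means of -1.24 in Nkx6.1 islets, -1.12 in Pdx1 islets and -0.92 in bGAL islets.

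Cdc6, which loads the helicase ring, read -2.52, -3.25, -1.13, -1.50 and -1.34 on the Nkx6.1 arrays, -1.66, -1.66 and -1.42 on the Pdx1 arrays, and -4.31, -4.31, -4.08, -2.85 and -2.69 on the bGAL arrays. The Pdx1 values cleared all bGAL values, and Nkx6.1 array 2 alone of its group did not. The difference was 1.70 (3.24-fold, SE 0.45, adjusted p = 0.116) in Nkx6.1 islets and 2.07 (4.18-fold, SE 0.52, adjusted p = 0.129) in Pdx1 islets. Without array 2 it passed for both, at 2.02 (adjusted p = 0.0323) and 2.07 (adjusted p = 0.0377). Neither passed with array set blocked, at 1.18 (adjusted p = 0.813) and 1.38 (adjusted p = 0.999).

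Cdc45, which joins the ring when it starts to unwind DNA, read -2.02, -3.13, -1.65, -1.72 and -2.09 on the Nkx6.1 arrays and -1.92, -1.73 and -1.89 on the Pdx1 arrays, against -4.49, -2.97, -2.93, -2.96 and -2.42 on the bGAL arrays. Again Nkx6.1 array 2 lay within the bGAL range and all other values with a factor lay above it. The difference was 1.03 (SE 0.37, adjusted p = 0.230) in Nkx6.1 islets and 1.30 (SE 0.43, adjusted p = 0.247) in Pdx1 islets. Gmnn, the inhibitor of Cdt1, read -2.64, -1.13, -1.98, -2.32 and -2.11 on the Nkx6.1 arrays, -2.10, -1.91 and -2.12 on the Pdx1 arrays, and -2.97, -3.23, -4.14, -3.16 and -3.87 on the bGAL arrays. Neither factor's Gmnn values overlapped bGAL, at differences of 1.44 (2.71-fold, SE 0.30, adjusted p = 0.0529) and 1.43 (2.70-fold, SE 0.35, adjusted p = 0.117).

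Cdt1, the target of geminin, showed no such difference, at -0.23 (SE 0.34) in Nkx6.1 islets and -0.19 (SE 0.35) in Pdx1 islets, but it had only 2 bGAL values. Gins2, of the GINS complex, differed by -0.18 and -0.38.

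**Figure D3:**
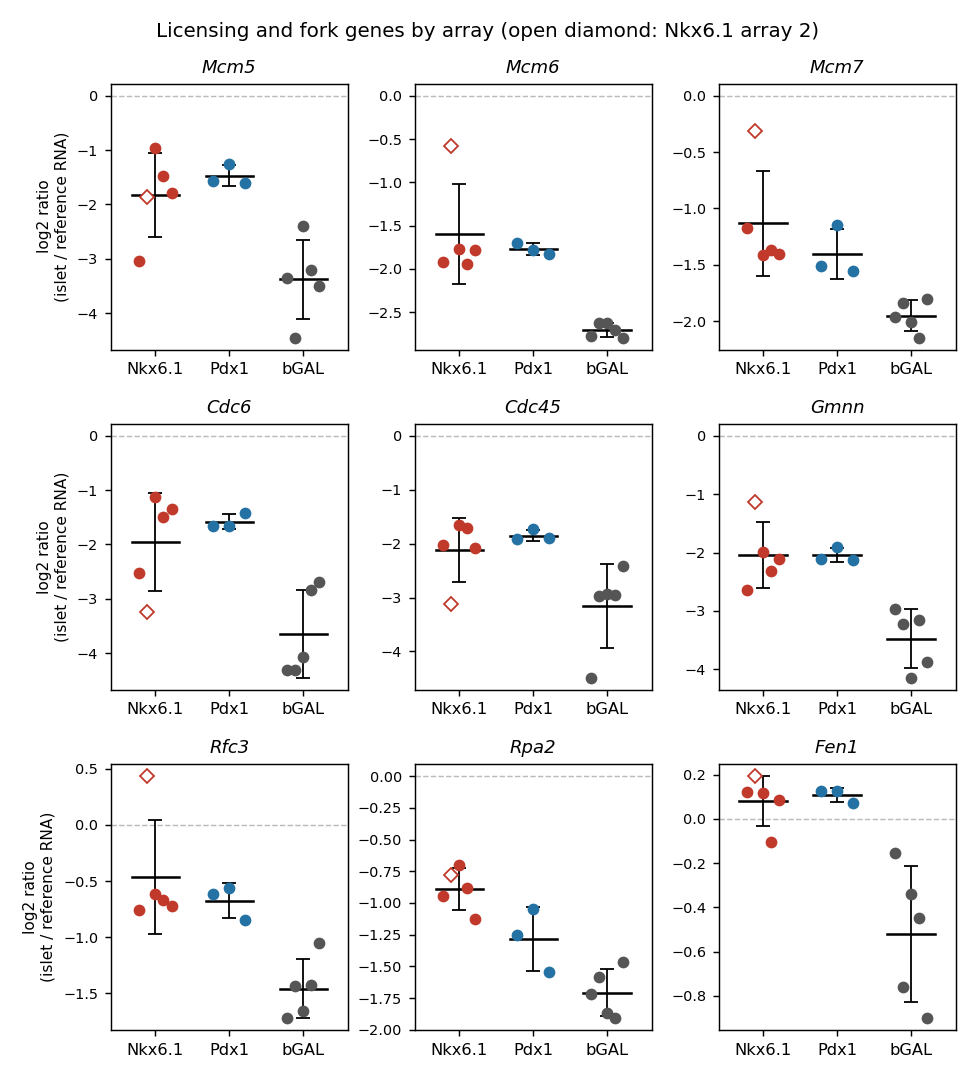
Log2 ratio of islet over reference RNA on each array for 9 licensing and fork genes, with columns for Nkx6.1, Pdx1 and bGAL; lines are means, bars are SD, the open diamond is Nkx6.1 array 2 and each panel has its own axis. The Pdx1 points lie above all bGAL points in every panel except Rpa2, and the open diamond is high for Mcm6, Mcm7, Gmnn and Rfc3 but low for Cdc6 and Cdc45.

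Among the fork, polymerase and ligation genes, 7 of 10 probes lay above bGAL in Nkx6.1 islets (median 0.53) and 9 of 10 in Pdx1 islets (median 0.66), and none passed after adjustment. Rfc3, a subunit of the clamp loader that places PCNA on DNA, read -0.76, 0.44, -0.61, -0.67 and -0.72 on the Nkx6.1 arrays, -0.61, -0.56 and -0.85 on the Pdx1 arrays, and -1.72, -1.44, -1.66, -1.42 and -1.05 on the bGAL arrays. No value of either factor overlapped bGAL, and array 2 was again the highest. The difference was 0.99 (1.99-fold, SE 0.25, adjusted p = 0.0957) in Nkx6.1 islets and 0.78 (1.72-fold, SE 0.29, adjusted p = 0.296) in Pdx1 islets. Without array 2 it passed for both, at 0.77 (adjusted p = 0.0404) and 0.78 (adjusted p = 0.0451). With array set blocked it passed for neither, at 0.87 (adjusted p = 0.630) and 0.62 (adjusted p = 0.999).

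Rpa2, a subunit of the protein that coats single-stranded DNA, read -0.95, -0.78, -0.70, -0.88 and -1.13 on the Nkx6.1 arrays, -1.25, -1.05 and -1.55 on the Pdx1 arrays, and -1.72, -1.58, -1.87, -1.91 and -1.47 on the bGAL arrays. The Nkx6.1 values cleared bGAL and the Pdx1 values overlapped it at 1 array. The difference was 0.82 (SE 0.18, adjusted p = 0.0633) in Nkx6.1 islets and 0.43 (SE 0.21, adjusted p = 0.440) in Pdx1 islets, and without Nkx6.1 array 2 only the first passed, at 0.79 (adjusted p = 0.0390) against 0.43 (adjusted p = 0.223). With array set blocked neither passed, at 0.87 (adjusted p = 0.381) and 0.49 (adjusted p = 0.999).

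Fen1, the nuclease that trims Okazaki fragments, read 0.12, 0.19, 0.12, -0.11 and 0.09 on the Nkx6.1 arrays, 0.12, 0.13 and 0.07 on the Pdx1 arrays, and -0.15, -0.76, -0.34, -0.45 and -0.90 on the bGAL arrays. Both factors lay above every bGAL value, by a narrow gap at the closest arrays. The differences of 0.60 (SE 0.18, adjusted p = 0.168) and 0.63 (SE 0.21, adjusted p = 0.254) did not pass.

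The sliding clamp itself, Pcna, read 0.58, -0.91, 0.40, -0.22 and 0.29 on the Nkx6.1 arrays and -0.27, 0.20 and -0.18 on the Pdx1 arrays. Its bGAL values fell into a near-zero trio on arrays 1, 2 and 3 (0.06, -0.24 and -0.05) and a low pair on arrays 4 and 5 (-1.89 and -1.88). The differences of 0.83 (SE 0.44) and 0.72 (SE 0.50) did not pass at an unadjusted p under 0.05.

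Rfc5 differed by 0.90 (unadjusted p = 0.0162, adjusted p = 0.232) in Nkx6.1 islets and 0.69 in Pdx1 islets. Rpa1, Rfc2, Pola2 and Pold1 did not pass at an unadjusted p under 0.05 in either comparison. Across the 35 member probes, the bGAL values spanned more than 2 log2 units on 8, among them Rpa1 and Pold1, whose bGAL values ran from -2.48 to near 0 and from -2.66 to -0.07.

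For nucleotide supply, Tyms (thymidylate synthase) averaged -0.07 ± 0.39 in Nkx6.1 islets (SD, n = 5), -0.45 ± 0.26 in Pdx1 islets (SD, n = 3) and -0.67 ± 0.38 in bGAL islets (SD, n = 5). Its Nkx6.1 difference of 0.60 had an unadjusted p of 0.0298 and an adjusted p of 0.288. Rrm2, the small subunit of ribonucleotide reductase, averaged -2.20 ± 0.65, -2.75 ± 0.61 and -2.75 ± 1.03 in the same groups, with full overlap. Of the chromatin genes, Chaf1b (a subunit of the histone chaperone that follows the fork) ran from -2.95 to -0.12 on the bGAL arrays and differed by 0.95 (SE 0.61) in Nkx6.1 islets and 0.21 (SE 0.71) in Pdx1 islets. Uhrf1, which brings the maintenance methyltransferase to new DNA, differed by 0.13 and 0.02.

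The 3 Fanca probes did not read alike. Probe Rn30015256 read -1.18, -1.02, -0.43, -0.38 and -0.96 on the Nkx6.1 arrays (-0.79 ± 0.36, SD, n = 5) and -2.54, -2.26 and -2.96 on the Pdx1 arrays (-2.59 ± 0.35, SD, n = 3). On the bGAL arrays it read -3.74, -3.40, -4.49, -2.50 and -2.62 (-3.35 ± 0.82, SD, n = 5). The Nkx6.1 values lay above all others, and the Pdx1 values overlapped bGAL. The difference was 2.56 (SE 0.36, adjusted p = 0.00599) in Nkx6.1 islets and 0.76 (SE 0.41, adjusted p = 0.505) in Pdx1 islets. With array set blocked, the Nkx6.1 difference was 2.10 with an adjusted p of 0.108, and the call was lost.

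Probe Rn30015303 of Fanca went the other way, at 2.00, 1.01, 0.38, 1.25 and 2.18 on the Nkx6.1 arrays and 0.28, 1.15 and 0.86 on the Pdx1 arrays, against 1.90, 2.12, 2.34, 2.08 and 1.62 on the bGAL arrays. All Pdx1 values lay below all bGAL values. Its differences were -0.65 (SE 0.33, adjusted p = 0.379) in Nkx6.1 islets and -1.25 (2.38-fold lower, SE 0.38, adjusted p = 0.212) in Pdx1 islets. Probe Rn30015304 differed by -0.42 (SE 0.34) and -0.32 (SE 0.39), neither past an unadjusted p of 0.05. Which part of the gene each probe reads is not given in the sources used here, so the Fanca call belongs to 1 probe and not to the gene as a whole.

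**Figure D4:**
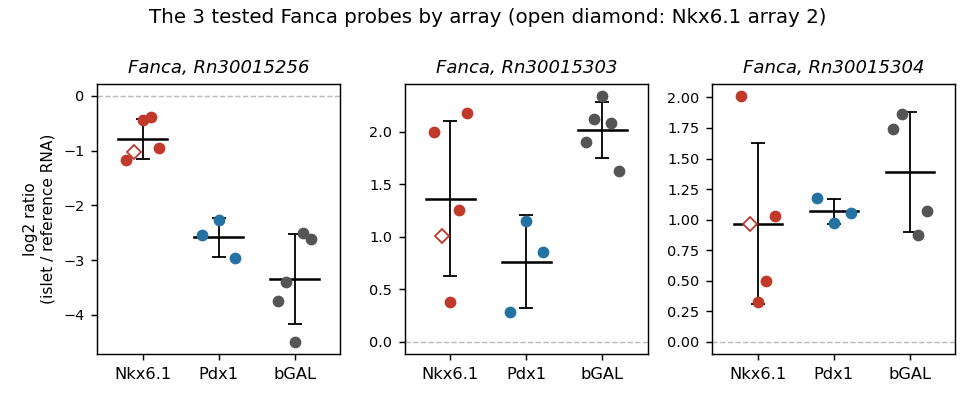
Log2 ratio of islet over reference RNA on each array for the 3 tested Fanca probes, with columns for Nkx6.1, Pdx1 and bGAL; lines are means, bars are SD, the open diamond is Nkx6.1 array 2 and each panel has its own axis. On probe Rn30015256 the Nkx6.1 points lie above both other groups, while on Rn30015303 the Pdx1 points lie below all bGAL points.

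The Nkx6.1 arrays were also set directly against the Pdx1 arrays, to ask where the factors differ. No member passed at an adjusted p under 0.05 in limma in either direction, where 0.0223% of all probes were called higher in Nkx6.1 islets and 0.195% lower. The median difference of the member probes was -0.027, against 0.025 over all probes. At an unadjusted p under 0.05, the Fanca probe Rn30015256 was higher in Nkx6.1 islets and Ccnd2 and Rfc4 were lower, against 3.59% and 3.26% of all probes. Every Nkx6.1 value lay above every Pdx1 value on that Fanca probe alone (6.1% of all probes), and below on Ccnd2, Rpa1 and Ccne2 (5.98% of all probes). Counts of 1 to 3 among 35 probes are of the same order as these background shares.

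For Ccnd2 the difference, Nkx6.1 minus Pdx1, was -1.69 (SE 0.46, adjusted p = 0.298). Without Nkx6.1 array 2 it was -1.23 and passed (adjusted p = 0.0170), as the only member among the 0.34% of all probes called lower. In the unplanned fit with array set blocked and without that array it was called too, against 0.395% of all probes. With the block and all arrays it was -1.71 and did not pass (adjusted p = 0.347). For the Fanca probe the difference was 1.79 (3.47-fold, SE 0.41, adjusted p = 0.151), and it passed when the arrays were quantile normalized or scaled to one spread. Rfc4, another clamp loader subunit, differed by -1.48 (SE 0.66, adjusted p = 0.717), but its values scattered: the Pdx1 arrays read -1.81, 0.18 and 0.12, and bGAL 4 read 0.60 where the other bGAL arrays lay between -2.45 and -1.78. For E2f8, Ccna2, Mcm6 and Gmnn, the differences were 0.24 (SE 0.33), -0.24 (SE 0.48), 0.17 (SE 0.29) and 0.01 (SE 0.35), smaller than or equal to their errors. These misses of the threshold do not show that the factors act alike.

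Other genes of the same processes were counted from lists grouped by function, which were chosen with earlier results of these data known. Of 37 further replication and S-phase genes, 27 had a tested probe (30 probes). None was called in limma. At an unadjusted p under 0.05, 10 probes (33.3%) were higher and 0 lower in Nkx6.1 islets, against 5.24% and 9.2% of all probes, with a median of 0.24. In Pdx1 islets 8 (26.7%) were higher and 2 (6.67%) lower, against 4.09% and 7.78%, with a median of 0.21. The smallest p in Nkx6.1 islets belonged to Nasp, a histone chaperone, which averaged -0.55 against -1.37 in bGAL islets (difference 0.83, adjusted p = 0.0659). Orc1, the origin-binding subunit, differed by 1.51 (adjusted p = 0.108). In Pdx1 islets Gins4, of the GINS complex, averaged -1.70 against -3.62 in bGAL islets (difference 1.92, adjusted p = 0.106), and Dbf4, the activator of the kinase Cdc7, differed by 1.22 while Cdc7 itself differed by -0.79, none of them passing.

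Of 28 further G1/S regulators, 17 were tested (23 probes), and none was called. At an unadjusted p under 0.05, 2 (8.70%) were higher in Nkx6.1 islets (median -0.074) and 1 (4.35%) in Pdx1 islets (median 0.27), with none lower in either, against 5.24% and 4.09% of all probes higher. E2f3, an activating E2F, differed by 1.51 (adjusted p = 0.140) in Nkx6.1 islets and 0.90 (adjusted p = 0.514) in Pdx1 islets. Mybl2, an E2F target that acts on late cell-cycle genes, differed by 1.60 (adjusted p = 0.190) in Nkx6.1 islets. Of 21 checkpoint and repair genes, 11 were tested (13 probes) and none was called, with medians of -0.011 and 0.055. In Nkx6.1 islets 3 were higher and 3 lower at an unadjusted p under 0.05 (23.1% each), and in Pdx1 islets 4 (30.8%) were higher and 2 (15.4%) lower, against the same shares of all probes as above. Bard1, the partner of Brca1, had the largest differences there, at 2.56 (adjusted p = 0.0736) and 2.07 (adjusted p = 0.247), whereas the 2 probes of Fancd2 disagreed in Nkx6.1 islets, at 0.67 and -1.65.

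Genes of mitosis, the next stage of the cycle, were counted in the same way. Of 30 listed, 24 were tested (29 probes), and 12 probes were called higher in Nkx6.1 islets (41.4% of the list, against 0.412% of all probes) and 10 in Pdx1 islets (34.5%, against 0.44%), with none lower. The medians were 1.25 and 1.44, against -0.080 and -0.096 over all probes. Cdk1, the kinase of mitosis, differed by 2.65 (adjusted p = 0.000198) in Nkx6.1 islets and 2.34 (adjusted p = 0.000620) in Pdx1 islets. These counts were known when the list was chosen, and the difference between the lists was not tested.

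Probes outside the members were ranked by their correlation with E2f8, and several of the nearest belonged to the mitosis list. Tacc3 and Mastl are not on that list. Among 6034 named probes outside the members with a value on all 13 arrays, those with the highest Pearson correlation with E2f8 were Hmmr (0.956), Aurka (0.955), Mki67 (0.944), Tacc3 (0.938), Stmn1 (0.930) and Mastl (0.926). Among the members the closest were Ccna2 (0.869), Gmnn (0.856), Fen1 (0.815) and Cdc6 (0.809). These values are descriptive and rest in part on the shared difference between groups. After each group's mean was removed, the correlation was 0.579 for Hmmr, 0.543 for Aurka, 0.596 for Mki67, 0.206 for Tacc3, 0.021 for Stmn1 and 0.423 for Mastl. Among the members it was then 0.397 for Ccna2, 0.287 for Gmnn, 0.069 for Fen1 and 0.368 for Cdc6.

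Markers of the other cell types that islet preparations hold did not pass in either comparison: 0 probes were called in limma among the islet, acinar, duct, fibroblast, endothelial and macrophage lists. Of their 68 probes, 4 (5.88%) were higher and 5 (7.35%) lower at an unadjusted p under 0.05 in Nkx6.1 islets, against 5.24% and 9.2% of all probes. In Pdx1 islets 1 (1.47%) was higher and 8 (11.8%) lower, against 4.09% and 7.78%. The lower probes in Pdx1 islets were 3 of 12 macrophage (25.0%), 2 of 5 endothelial (40.0%), 2 of 18 fibroblast (11.1%) and 1 of 10 duct (10.0%). In Nkx6.1 islets they were 2, 1, 1 and 1 in the same order. No islet or acinar probe was lower. The higher ones were 2 of 6 acinar, 1 duct and 1 islet probe in Nkx6.1 islets and 1 acinar probe in Pdx1 islets. The fibroblast markers (15 of 18 genes tested) had medians of -0.27 and -0.29, with a mean level per array of -1.92 to -1.42 in Nkx6.1 islets, -2.22 to -1.59 in Pdx1 islets and -2.27 to -1.02 in bGAL islets. The macrophage and leukocyte markers (10 of 15) had medians of -0.19 and -0.40, the endothelial markers (5 of 12) -0.085 and -0.48, and the duct markers (9 of 13) -0.051 and -0.43. The acinar markers (6 of 16) had 0.66 in Nkx6.1 islets, with array means from -1.32 to 1.05, and 0.10 in Pdx1 islets. The islet markers (15 of 18) had 0.25 and 0.084. Single probes moved further than these medians, with none of them called. Emcn (endothelial) differed by -4.08 in Nkx6.1 and -4.01 in Pdx1 islets, and Dcn (fibroblast) by -2.64 and -2.87. C1qb (macrophage) differed by -1.22 and -1.39, while Ctrb1 (acinar) was higher, by 1.10 and 1.42. The part of the cell makeup in the cell-cycle differences was not tested.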

How the data were processed

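Dual-colour arrays of 13 islet samples were read as a table of log2 ratios that the authors deposited, with islet RNA (Cy5) over a common reference (Cy3), per the labels. The log base, background correction and normalization of these deposited log ratios are not stated in the labels or files, and neither is the rule that left values empty. That the values are log2, and not another base, was taken from their range and is an assumption on which every fold change rests. No spot intensity was used, so signal over background is unknown and precision is limited by the number of arrays.

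Samples were grouped by the virus named in the labels. After 22 control spots were left out, 17965 of 26962 probes had at least 2 values in every group. Older symbols were updated through RefSeq's rat gene table, which gave Cdc45 (Cdc45l) and Gins2 (RGD1311055), and 11234 tested probes had a symbol. A single limma model (R 4.3.3, limma 3.58.1) with 3 groups was fitted over all 13 arrays, two-sided, with Benjamini-Hochberg adjustment over all tested probes and a threshold of 0.05. Empty values were left out probe by probe and not imputed. The fit was tested on simulated data with 200 changed probes. Values on every array were given for the member probes called against bGAL, for the 12 with the smallest p in each comparison with bGAL, and for the D-type cyclins. Ccne2, Pcna and Rfc4 were added after their values were seen. The members and lists were chosen with earlier results of these data known.

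The alternatives were quantile normalization, scaling to one spread, median centring, probes with a value on all arrays, values within 0.01 of 0 left empty, the array set (over 30% of values empty) as a block, the arrays with few empty values alone, the replicate number as a block, a variance trend in limma, and each array left out. An unplanned alternative, counted with these, joined the array set block with leaving out Nkx6.1 array 2. The array set is a property of the files and is no stated batch. Same-numbered arrays did not deviate together: 2 of 11 same-number pairs had a correlation over 0.1 (range -0.24 to 0.47), so the numbers were not taken as pairs.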

Additional observations from a re-analysis of the deposited data

Results flagged for a closer look

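Of 30 groups of 4 to 10 values examined among the named members, 5 held a value far from the rest of its group by Dixon's criterion, where chance alone gives about 1 in 20. On Nkx6.1 array 2, Ccnd2 read 0.17, far below the other Nkx6.1 arrays. On the same array Mcm6 read -0.58, Mcm7 read -0.31 and Rfc3 read 0.44, each far above the other Nkx6.1 arrays. The remaining value was Cdc45 on bGAL array 1, at -4.49, far below the other bGAL arrays. Thus 4 of the 5 lay on Nkx6.1 array 2, the array that correlated least with all others, and they lay in both directions. Its part in these values was measured only by leaving it out. The cause was not tested.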

How the results depend on the processing

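Over the named members and all alternatives, 580 values kept their direction and side of the threshold, 31 gained and 27 lost a call, and 3 turned direction. The turned values were those of Ccnd2 in Nkx6.1 islets (-0.27 with all arrays): 0.52 after quantile normalization, 0.18 without Nkx6.1 array 2 (-0.44 to 0.18 with any 1 array left out) and 0.089 without it and with array set blocked. Against 115 called probes in all for Nkx6.1 minus bGAL, there were 46 after quantile normalization, 13 with array set blocked, 21 with the replicate block and 0 on the arrays with few empty values, where bGAL is 1 array assumed to vary like the rest. Against 98 for Pdx1 minus bGAL there were 21 with array set blocked, 22 with the replicate block and 3 on the arrays with few empty values. Against 39 for Nkx6.1 minus Pdx1 there were 96 after quantile normalization, 94 with one spread, 19 with the replicate block and 89 with array set blocked and Nkx6.1 array 2 left out. Of the members, 3 of 35 probes (8.57%) were called higher for Nkx6.1 minus bGAL, against 0.412% of all probes. Among probes filled on all arrays, where fewer were tested, 6 of 25 (24.0%) were, against 1.23% of 9241. With array set blocked 1 (2.86%) was, against 0.0557%. On the arrays with few empty values, where bGAL is 1 array, the member median was 0.44. For Pdx1 minus bGAL 1 (2.86%) was called higher, against 0.44% of all probes, but 0 after quantile normalization, against 0.312%. Median centring gave 2 (5.71%), against 0.406%. Probes filled on all arrays gave 2 of 25 (8.00%), against 0.833%. With the array set block or the replicate block 0 were called, against 0.117% and 0.111%. For Nkx6.1 minus Pdx1 0 were called. A Fanca probe was called higher after quantile normalization, against 0.0946% of all probes, and with one spread, against 0.156%. Ccnd2 was called lower with array set blocked without Nkx6.1 array 2, against 0.395%. A variance trend left 2 members called for Nkx6.1 minus bGAL, without Ccna2, among 100 called of 17965 probes in all. The replicate block called Fanca and E2f8 in Nkx6.1 islets, against 0.0946% of all probes, and lost Ccna2 there and E2f8 in Pdx1 islets. The median member difference for Pdx1 minus bGAL was 0.63, but 0.23 after quantile normalization, 0.39 with one spread, 0.76 among probes filled on all arrays, 0.49 with array set blocked, 0.51 with that block and without Nkx6.1 array 2, 0.55 with the replicate block and 0.44 on the arrays with few empty values. Median centring moved the median of all probes for Nkx6.1 minus bGAL to 0.028, against -0.080, and that of the members to 0.70. With 1 array left out at a time, all-probe counts were 39 to 595 (Nkx6.1 minus bGAL), 16 to 432 (Pdx1 minus bGAL) and 14 to 81 (Nkx6.1 minus Pdx1). Member counts were 2 to 9, 0 to 9 and 0 to 1, and member medians 0.50 to 0.70, 0.54 to 0.65 and -0.035 to 0.059. The highest all-probe counts against bGAL came without bGAL array 4 and the highest member counts without Nkx6.1 array 2, and 0 members were called for Pdx1 without any 1 Pdx1 array. Values left empty on 5 arrays limit the probes compared: 25 of 35 member probes had a value on every array. The causes of these changes were not tested.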
